A study of Strongylocentrotus purpuratus with 10 samples.

Results

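The genes described here are 8 endoderm regulators of the purple sea urchin Strongylocentrotus purpuratus, out of 33503 genes in the gene table of the Spur_5.0 assembly. They are FoxA, GATAe, Hbox7 (named Sp-Hox11/13b by the authors), otx, hh (hedgehog), LOC373385 (Sp-Myc), and LOC586986 and LOC115918252, both named Sp-Dac. They were taken by name, as regulators of the endoderm or of its neighbours with Brachyury peaks, and their rows in the authors' differential table and the peaks within 10 kb of their spans were collected. By the authors' combined set, the peak part of that description held for 5 of the 8. FoxA, GATAe, otx, hh and LOC115918252 had a peak of the authors' combined set within 10 kb, Hbox7 and LOC586986 had none, and LOC373385 could not be placed on a scaffold. In the longer list of antibody library 2 alone, all 7 placed genes had a peak within 10 kb.

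The study asked where Brachyury binds in the blastula and how its loss alters transcript levels. RNA-seq was made from 3 libraries of whole embryos injected as zygotes with 2 to 4 pl of a translation-blocking brachyury morpholino at 200 µM, and from 3 libraries labelled wild type control. ChIP-seq was made from 2 antibody libraries and 2 input libraries, 1 input for each antibody library, from whole embryos fixed at 24 h after fertilisation. The RNA replicates are called biological by the labels, which do not say whether the controls were injected, whether embryos were pooled, or how the antibody libraries, called libraries 1 and 2 here, differ. All groups, RNA and ChIP, were blastulae at 24 h.

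The morpholino is the only designed sequence of the study that acts on every RNA value below. Its letters run 5′ to 3′, and the capitals mark the 2 CAT triplets, each of which pairs with an AUG of the sense strand.
brachyury morpholino: cgctCATtgcaggCATagtggcg
No genome sequence of this assembly was used here, so the letters under the peaks are not shown.

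Brachyury is a T-box transcription factor. In sea urchin embryos it is active in the vegetal plate, from which the gut forms, and in the oral field. The gut is set up by a small circuit of transcription factors, in which Otx and GATAe sustain one another, FoxA marks the endoderm and keeps mesoderm genes off there, and Hox11/13b acts in the future hindgut. Hedgehog is a secreted ligand that the sea urchin endoderm sends to the neighbouring mesoderm. Myc is a helix-loop-helix factor of growth and proliferation, and Dachshund is a nuclear cofactor that works with Eya and Pax proteins in other animals.

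The peak values are those of the authors. Each peak has an antibody signal, an input signal, their ratio (fold over input), a distribution score between 0 and 1, a score and a false discovery rate. In all 8943 peaks of both lists, the score equalled the antibody signal minus the input signal, times the distribution score, within rounding. The lists held 7459 nuclear peaks in library 2, with a median score of 0.72, and 1406 in library 1, with a median score of 0.56. The combined set held 490 peaks with a median score of 2.18 and a median fold of 5.66, of which 169 overlapped a library 1 peak. These lists hold no read totals, which leaves library depth unknown. The sources used here do not say whether signals of both libraries are on 1 scale.

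Within 10 kb of the 7 placed genes lay 8 combined peaks, all at positions of library 2. They belonged to 5 of the 7 genes, and 1.61% of 24774 placed protein-coding genes had such a peak. The genes were picked with their peaks known, so the 5 are a description. The 8 peaks had scores between 1.91 and 26.41, with a median of 8.8, and a median fold over input of 36.3. Of these peaks, 6 lay inside a gene span, and 3 overlapped a peak of library 1. For library 1, 8 peaks lay near 6 of the 7 genes, against 5.82% of placed genes with 1 or more. For library 2, 24 peaks lay near 7 of 7, against 21.5% of placed genes. The 16 library 2 peaks outside the combined set were low, with scores from 0.5 to 1.02. Low peaks of this kind make up most of library 2, where 6093 of the peaks score under 1. Of the combined peaks, the farthest inside the 10 kb limit lay 8214 bp from its gene and the nearest outside it 13644 bp.

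**Figure D1:**
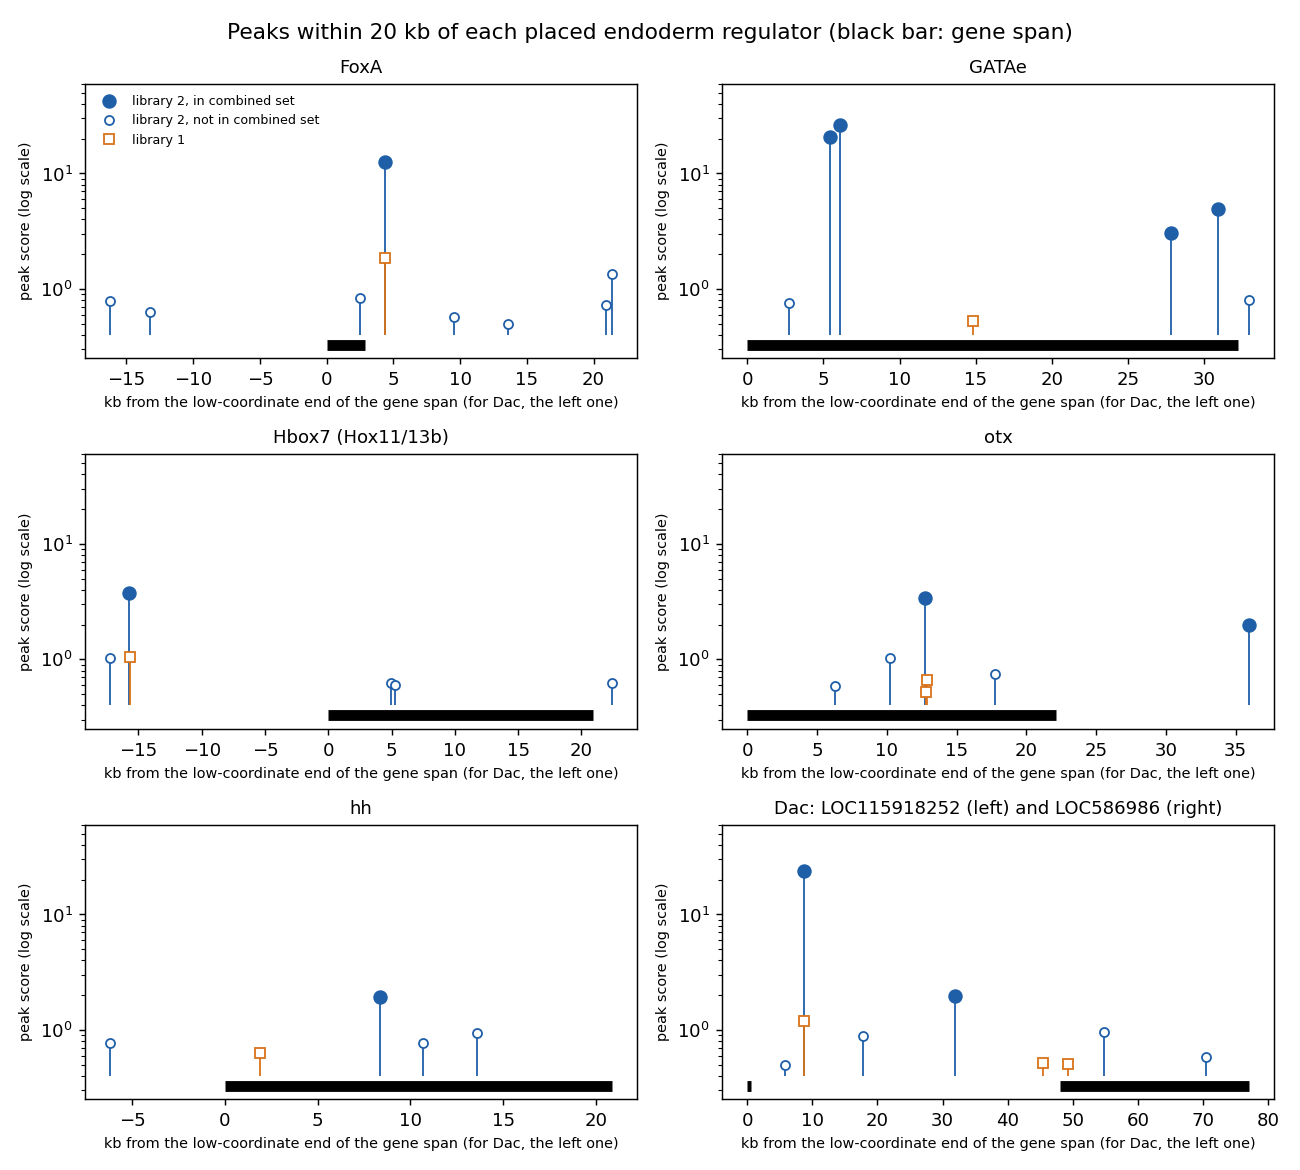
Peaks within 20 kb of each placed gene, by distance in kb from the low-coordinate end of its span (black bar) and by the authors' peak score on a log scale. Filled circles are combined peaks, open circles are other peaks of library 2 and squares are peaks of library 1; the GATAe and Dac panels hold the 3 highest peaks, with scores of 26.41, 23.66 and 20.84.

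GATAe, the GATA factor of the endoderm, held the most peaks of the 7. Its span is 329575 to 361799 of scaffold NW_022145613.1, and all 4 of its combined peaks lay inside. GATAe was 1 of 4 placed genes with 4 or more combined peaks within 10 kb, where the median gene with any such peak had 1. The highest, at 335535 to 335818, had an antibody signal of 27.01 and an input signal of 0.59, a fold of 45.45 and a score of 26.41. It ranked 6 among the 7459 peaks of library 2. The neighbouring peak at 334861 to 335144 had an antibody signal of 21.43 and an input signal of 0.58, a fold of 36.95 and a score of 20.84, which ranked 9. Their midpoints lay 6101 and 5427 bp from the low-coordinate end of the span, so they form a close pair. The start of transcription is not placed, because the gene table used here gives no strand.

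The other pair of GATAe peaks lay at the opposite end. The peak at 357226 to 357509 had an antibody signal of 3.42 and an input signal of 0.39, a fold of 8.76 and a score of 3.03. The peak at 360312 to 360595 had an antibody signal of 74.09 and an input signal of 0.95. Both that antibody signal and its fold of 77.94 were the highest of library 2, where the next highest were 42.67 and 73.37. Its distribution score of 0.07 was the lowest of library 2, where the next lowest was 0.21, and its score was therefore 4.96, rank 95. The peak that leads library 2 by raw signal thus stood far below the pair by score.

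Library 1 gave little at GATAe. None of the 4 combined peaks overlapped a peak of library 1, whose only peak near GATAe lay elsewhere in the span, at 344324 to 344459, with an antibody signal of 0.68, an input signal of 0.15 and a score of 0.53. Of the 36 peaks of library 2 with a score of 10 or more, 26 overlapped a library 1 peak, and the GATAe pair belonged to the other 10. A second gene, LOC577787, lay 9326 and 10000 bp from the pair, and neither it nor GATAe stands in the authors' deposited table. A gene can be missing there for want of a change, of reads or of a low enough p.

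**Figure D2:**
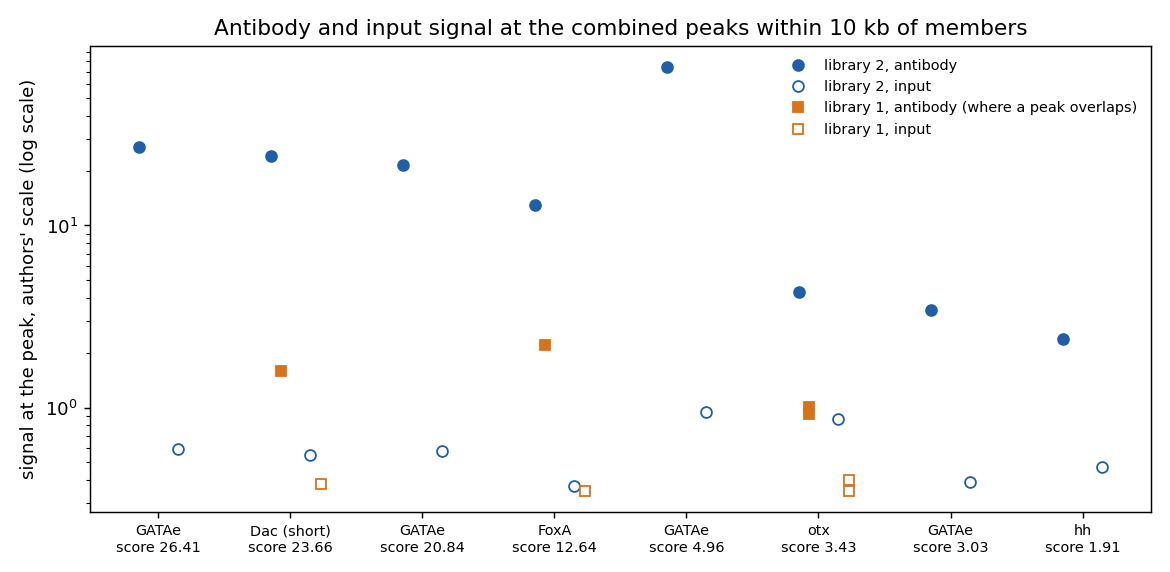
Antibody signal (filled) and input signal (open) on the authors' scale, log axis, at the 8 combined peaks within 10 kb of the genes, ordered by score; circles are library 2 and squares library 1, drawn where a library 1 peak overlaps. Antibody signals of library 2 span 2.38 to 74.09, while its input signals stay between 0.37 and 0.95.

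FoxA, the forkhead factor of the endoderm, had a single strong peak next to the gene. The span is 31436173 to 31439051 of scaffold NW_022145611.1, and the combined peak at 31440387 to 31440670 lay 1336 bp beyond its high-coordinate end. Library 2 had an antibody signal of 13.01 and an input signal of 0.37 there, a fold of 35.63 and a score of 12.64, rank 23. Library 1 had its own peak at the same place, 31440450 to 31440585, with an antibody signal of 2.22 and an input signal of 0.35, a fold of 6.43 and a score of 1.87. That score ranked 11 among the 1406 peaks of library 1, so by score the FoxA site stood near the top of both lists. By fold, the library 1 peak ranked 117. No other protein-coding gene span lay within 10 kb of the site. The other library 2 peaks near FoxA had scores of 0.84, inside the span, and 0.57.

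Dac is represented by a pair of gene models on scaffold NW_022145596.1. LOC115918252 spans 402 bp, from 14553230 to 14553631, with 1 transcript. LOC586986 spans 29009 bp, from 14601272 to 14630280, with 8 transcripts. They lie 47641 bp apart with 1 other gene between them, and both rows of the authors' deposited table carry the same transcript cluster identifier, which the 2 genes alone share. Whether they are separate genes or pieces of 1 was not tested, and the authors' counting could have split reads between them.

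The highest Dac peak, at 14561845 to 14562128, lay 8214 bp from the short model and 39144 bp from the long one. Library 2 had an antibody signal of 24.21 and an input signal of 0.55 there, a fold of 44.0 and a score of 23.66, rank 7. Library 1 had an antibody signal of 1.59 and an input signal of 0.38 at 14561942 to 14562077, a fold of 4.15 and a score of 1.2, rank 34. Like the FoxA site it ranked high in both lists by score. By fold, the library 1 peak at Dac ranked only 471, with the list median at 3.59. The peak lies between the models, so its count falls to the short model because of where that model ends. LOC586986 had no combined peak within 10 kb. The nearest, at 14585012 to 14585295 and also between the models, lay 15977 bp away with an antibody signal of 2.47, an input signal of 0.51 and a score of 1.96. Near LOC586986, library 2 peaks had scores of 0.96 and 0.58 and library 1 peaks 0.52 and 0.51, with no overlap between the libraries.

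At otx, the homeobox gene of the circuit, the combined peak lay inside the span and was modest. The span is 20239836 to 20261988 of scaffold NW_022145611.1, and the peak runs from 20252455 to 20252738. Library 2 had an antibody signal of 4.29 and an input signal of 0.87 there, a fold of 4.95 and a score of 3.43, rank 150. Library 1 had 2 overlapping peaks at that place, with antibody signals of 0.92 and 1.01, input signals of 0.4 and 0.35, and scores of 0.52 and 0.67. The otx site is the third of the sites that both libraries hold, and the lowest by score. Its input signal of 0.87 was the second highest of the 8. A further combined peak, at 20275632 to 20275915 with a score of 1.98, lay 13644 bp outside the span.

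The hh gene, which codes for the Hedgehog ligand, had the combined peak with the lowest score and antibody signal of the 8; its fold was slightly above that at otx. It spans 3341495 to 3362363 of scaffold NW_022145612.1, and the peak lay inside, from 3349733 to 3350016. Library 2 had an antibody signal of 2.38 and an input signal of 0.47 there, a fold of 5.05 and a score of 1.91, rank 304. Library 1 had no overlapping peak, and its only peak near hh, at 3343335 to 3343470, had a score of 0.63 and no counterpart in library 2. The score at hh was thus below the combined median of 2.18.

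Hbox7, the posterior Hox gene of the hindgut, had no combined peak within 10 kb. It spans 38147088 to 38167984 of scaffold NW_022145612.1. The 3 library 2 peaks near it were low, with scores of 0.62, 0.6 and 0.63, and library 1 had none. At 15615 bp from the span, outside the distance set here, both libraries held a peak. Library 2 had an antibody signal of 4.45, an input signal of 0.7 and a score of 3.74 at 38131190 to 38131473, rank 133. Library 1 had an antibody signal of 1.24, an input signal of 0.19 and a score of 1.05 at 38131337 to 38131472, rank 46. With a distance of 20 kb, Hbox7 and LOC586986 would join the genes with a combined peak, giving 7 of 7. The share of all placed genes was computed at 10 kb only, so this count has no background beside it.

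LOC373385, the Myc gene, starts at 770123 and ends at 774151 of a scaffold that the gene table does not name. The order of its rows allows only scaffolds on which 0 peaks lie within 10 kb of those positions. On a later scaffold, NW_022145549.1, 4 peaks of library 2 lie near the same positions, with scores of 0.82, 0.54, 0.75 and 1.02, but the order puts Myc at least 5 scaffolds before it. Myc was left out of the peak counts for this reason. It is therefore described below by its transcript alone.

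The authors' false discovery rate did not order these peaks as their score did. It was 82.35% and 78.57% at the GATAe pair, 82.5% at Dac and 58.93% at FoxA, against 9.76% at hh, the lowest score of the 8. At the other 3 peaks it was 25.78% and 16.02% in GATAe and 18.03% in otx. The same held over the whole of library 2. The median rate was 60.6% among 36 peaks with a score of 10 or more, 16.9% among 252 peaks with scores of 2 to 10, 6.65% among 1078 peaks with scores of 1 to 2, and 28.5% among 6093 peaks below that. Among the 36 it was not uniformly high, and it was 0.0% at the lead peak of the list, with a score of 41.68. In library 1 the rate was 14.49% at FoxA and 18.1% at Dac, where the lowest of the whole list was 12.2%. The sources used here do not say how the rate was estimated. A threshold of 10% would keep only the hh peak, and would drop the 4 peaks near these genes that score above 10.

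**Figure D3:**
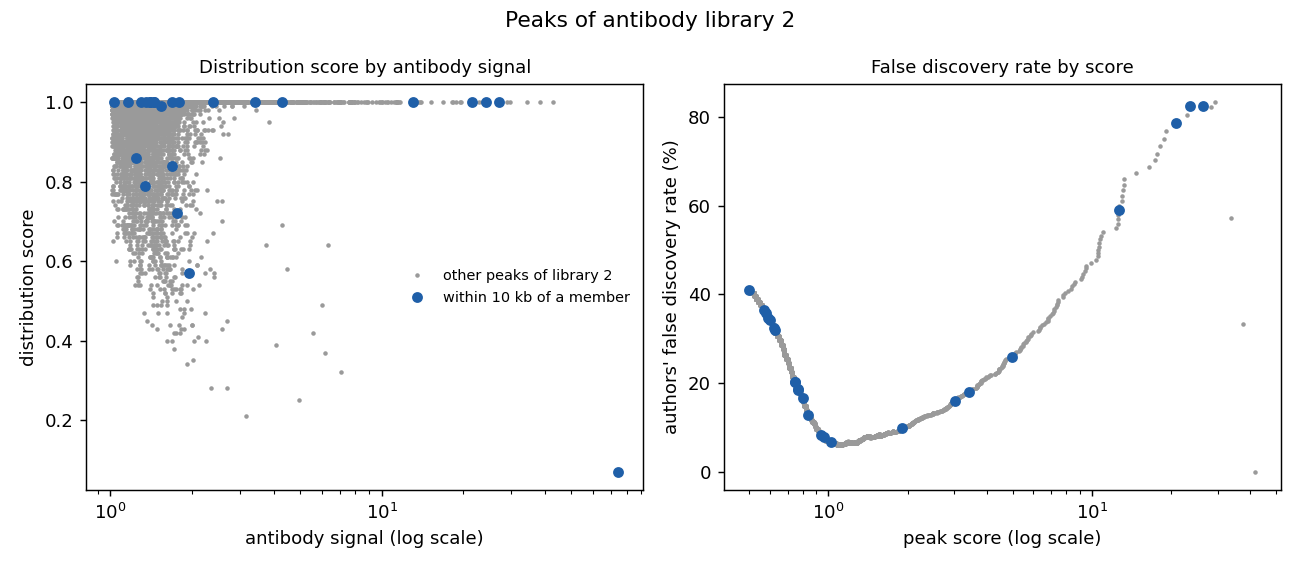
Distribution score against antibody signal (left) and the authors' false discovery rate in percent against peak score (right) for the 7459 peaks of library 2, with log horizontal axes. Peaks within 10 kb of the genes are blue. The GATAe peak with a distribution score of 0.07 lies alone at the lower right of the left panel. In the right panel the rate climbs above a score of about 1, but it is 0.0% at the highest score, 41.68.

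Over all placed protein-coding genes, the share with a combined peak differed by gene length and scaffold. The placed regulators had a median span of 20897 bp, against 10226.5 bp over all placed genes, and 5 of them fell in the class of 20 to 40 kb. In that class, 2.35% of 4298 genes had a combined peak within 10 kb. The share was 1.16% up to 1 kb, the class of LOC115918252, and 0.923% from 1 to 10 kb, the class of FoxA. The 4 scaffolds that carry the genes had between 10.2 and 20.2 library 2 peaks per Mb, and the 17 others between 2.16 and 15.1. For combined peaks, the range was 0.66 to 0.995 per Mb on the 4 scaffolds and 0.0954 to 1.05 per Mb on the 17. The share of genes with a combined peak was 2.71% on the scaffold of FoxA and otx, 1.86% on that of hh and Hbox7, 2.96% on that of GATAe and 1.39% on that of Dac. In the same order, the share with a library 2 peak was 41.3%, 33.1%, 30.7% and 23.8%. The share with a library 1 peak was 8.68%, 8.58%, 9.11% and 5.57%. In the class of 20 to 40 kb, 29.9% of genes had a library 2 peak and 8.28% a library 1 peak. The part of length and scaffold in the counts above was not tested.

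The brachyury gene itself (LOC576774) gives another case in which the libraries differ. It had 8 combined peaks within 10 kb, the highest with an antibody signal of 10.56, an input signal of 0.65 and a score of 9.91. Library 1 had 0 peaks within that distance. Just outside it, 11187 bp from the span, a library 1 peak with a score of 0.69 overlapped a combined peak with a score of 3.63. Within 10 kb, the GATAe pattern, several high peaks in library 2 without overlap in library 1, was therefore not confined to GATAe. Of all 490 combined peaks, 169 overlapped a library 1 peak, so a lack of overlap was common.

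The RNA values are the authors' log2 fold changes between morphants and controls. The header does not say which group is the numerator, so values are given as positive or negative and not as higher or lower in morphants. The authors' deposited table holds 3542 genes with an adjusted p under 0.05. Of the 8 regulators, 7 stand in it, while 11.8% of 27445 protein-coding genes do. On the positive side were 4 (5.72% of protein-coding genes are positive in the table), and on the negative side 3 (6.12%). How many genes the authors tested is not given, and the regulators were picked with these rows known. In whole embryos, fewer cells of a type and less RNA per cell cannot be told apart. Levels per library are not in that table, so neither the level nor the spread of any of these genes can be given. The standard errors and intervals below are those that the authors' p-values imply if they came from a two-sided normal test, which the sources used here do not state.

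The gut factors stood on both sides of zero. In the authors' deposited table FoxA stood at -0.67 on the log2 scale (adjusted p = 0.00337), with an implied standard error of 0.189 (95% interval -1.04 to -0.30). The authors' deposited table gives Hbox7 a log2 value of 1.15 (adjusted p = 0.0290). Its implied standard error of 0.433 gave a 95% interval of 0.30 to 2.00, so its size is poorly fixed. The log2 value of otx in the authors' deposited table was 0.56 (adjusted p = 0.000913), with an implied standard error of 0.140 and a 95% interval of 0.28 to 0.83. GATAe, with the highest peak of all these genes, is not listed.

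Hedgehog had the widest change. In the authors' deposited table, hh stood at -2.31 on the log2 scale (adjusted p = 0.00975), which is a 4.97-fold difference. Its implied standard error of 0.696 was also the largest, with a 95% interval of -3.68 to -0.95. By absolute change it ranked 237 of 1828 negative genes. The gene with the largest change thus had the lowest combined peak, with a score of 1.91.

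Myc (LOC373385) stood at -0.92 on the log2 scale in the authors' deposited table (adjusted p = 0.000208), with an implied standard error of 0.213 and a 95% interval of -1.34 to -0.50. Both Dac models were positive. In the authors' deposited table, the log2 value was 0.80 for LOC586986 (adjusted p = 6.86e-08) and 0.64 for LOC115918252 (adjusted p = 0.00241). Their implied intervals, 0.54 to 1.05 for LOC586986 and 0.29 to 0.98 for LOC115918252, overlap over most of their width. The lowest adjusted p of the 7 was that of LOC586986, at rank 339 of 3542 in the authors' deposited table.

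These changes were small for the table. The median absolute log2 fold change was 0.80 over the 7 genes and 1.06 over all 3542 genes of the authors' deposited table. The median was 0.93 among its 1714 positive genes, which of the positive regulators only Hbox7 exceeded. Among its 1828 negative genes the median was -1.19, and of the negative regulators only hh lay beyond it. The median implied standard error was 0.189 for the 7 genes and 0.266 for all. The brachyury transcript, the target of the morpholino, stood at 1.18 on the log2 scale in the authors' deposited table (adjusted p = 8.71e-05). A morpholino of this kind blocks translation and need not remove its mRNA, so this value does not check the knockdown.

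**Figure D4:**
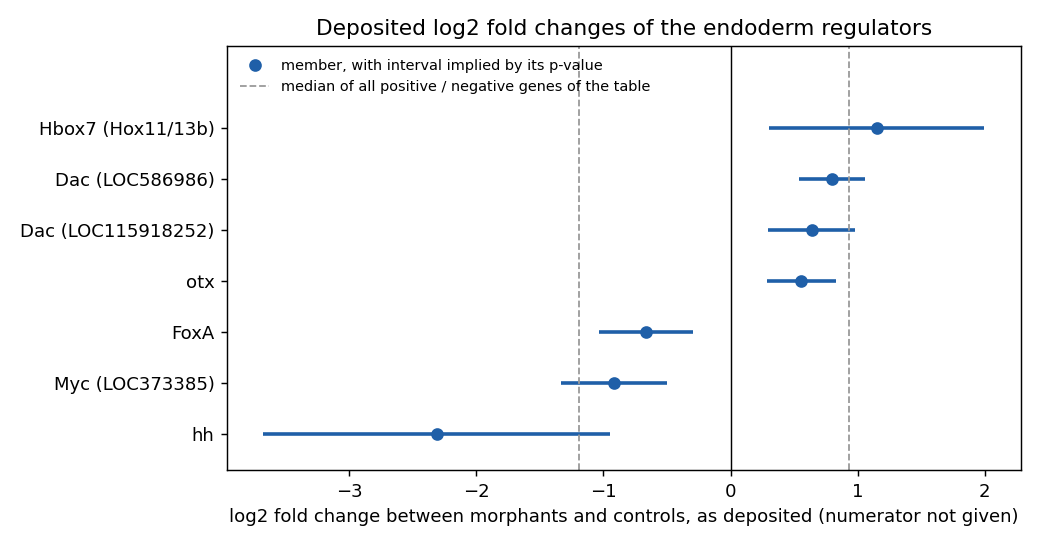
Deposited log2 fold changes between morphants and controls for the 7 listed genes, with the 95% interval implied by each p-value (bars); dashed lines are the medians of all positive and all negative genes of the table, 0.93 and -1.19. The bars of hh and Hbox7 are the widest, and no bar reaches 0, which the choice of listed genes by adjusted p brings about.

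Peaks and transcript changes are set side by side here for the 5 genes with a combined peak. GATAe, with scores up to 26.41, is not listed. LOC115918252 and FoxA, with 23.66 and 12.64, had 0.64 and -0.67 on the log2 scale in the authors' deposited table. The lower peaks of otx and hh, 3.43 and 1.91, went with 0.56 and -2.31 in the authors' deposited table. The sites that both libraries share lay beside positive genes (Dac and otx) and a negative one (FoxA). With 4 listed genes among these 5, no relation was computed.

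A broad list of other regulators was drawn up for the sea urchin endoderm and its borders. Those of its genes that stand in the authors' deposited table lay mostly on the negative side. The list also held genes of other territories, such as Six3 (apical and neural) and GATAc (mesoderm). Its counts are therefore not those of endoderm regulators alone. Of 30 entries in the list, 11 had a gene in the authors' deposited table, where 11.8% of all protein-coding genes stand. An entry counted where any gene matched to it was listed, so the count by entry and this share by gene are unlike measures. By entry, 3 were positive and 8 negative. By gene, with Nk1 and Unc4.1 counted 2 times each, 3 were positive and 10 negative, with a median log2 fold change of -0.86, against 1714 positive and 1828 negative genes overall in the authors' deposited table. Among the negative genes of the authors' deposited table were HNF1 (LOC764728, -1.72), a homeodomain factor of gut and liver in vertebrates, and both genes named Nk1 (-2.11, and -2.51 for LOC115924127). The Sox factors SoxB1 and SoxB2 stood at -0.82 and -0.86, and the homeobox gene Tgif (LOC575445) at -0.68, in the authors' deposited table. On the positive side of the authors' deposited table were GATAc (1.17), a GATA factor of mesoderm, FoxM (LOC576632, 0.83) and the cilia regulator FoxJ1 (0.75). Peaks were counted only for these 13 genes and not for the unlisted entries. The list was drawn up with earlier results of these data known, so the peak count is a description. Of the 13 genes 12 were placed, and 3 of the 12 had a combined peak within 10 kb, against 1.61% of all placed genes. The scores were 3.47 at HNF1, 2.55 at Tgif and 1.77 at Six3 (LOC576281), within or below the range from hh (1.91) to otx (3.43), except that HNF1 was just above otx. All 3 were negative, Six3 at -0.58 in the authors' deposited table.

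Partners of hh, Myc and Dac are read against the same 11.8%, again a share of genes and not of entries. Of 11 Hedgehog pathway entries 1, the transcription factor Gli (LOC580371), had a gene in the authors' deposited table, at -0.53 on the log2 scale (adjusted p = 0.0227), negative like hh but closer to 0. It had 0 combined peaks and 4 library 2 peaks within 10 kb. Of 7 Myc network entries 1, the Mondo gene (LOC583678), was listed, with 0.82 in the authors' deposited table, opposite in sign to Myc. Of 4 Dac network entries, 2 were listed and both were negative in the authors' deposited table, Pax2/5/8 (LOC115918459) at -1.97 and Pax6 (LOC100892714) at -1.50, opposite in sign to both Dac models. None of these 4 partner genes had a combined peak within 10 kb, where 1.61% of all placed genes had one.

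Differentiation genes of the gut act late in the pathway. Of 6 entries 4 were listed, beside 11.8% of all protein-coding genes, again a share of genes and not of entries. By entry, 1 was positive and 3 were negative. By gene, 1 was positive and 7 were negative, with a median of -2.47 in the authors' deposited table. Of all protein-coding genes, 5.72% are positive and 6.12% negative there. The Apobec and Orct copies, which count separately here, carry that median. An Apobec gene (LOC575684) stood at -2.60 and an Orct transporter gene (LOC585536) at -2.80, and Gelsolin (LOC579255), an actin-severing protein, at 1.36, all in the authors' deposited table. Here too, peaks were counted only for the listed genes. Of these 8 genes 6 were placed, and 1 of the 6, a Macf gene (LOC756550, -0.45 in the authors' deposited table), had a combined peak within 10 kb, against 1.61% of all placed genes. Its score of 1.56 lay below all 8 peaks of the regulators.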

How the data were processed

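Whole blastulae were profiled by RNA-seq (3 morphant and 3 control libraries) and ChIP-seq (2 antibody and 2 input libraries). BWA 0.7.17, DESeq2 1.28.1, Salmon 0.11.3 and Trimmomatic 0.38 are listed in the submitters' processing notes, which state no roles. The sources used here do not name the peak caller. The authors deposited a log2 fold change, p-value and adjusted p-value per gene for 3542 genes, per the file headers, and did not state the numerator. The adjusted p did not follow the order of p (46.4% of genes had an adjusted p below that of the gene with the next lower p), so the adjustment was not plain over 1 set of genes. For each peak the authors deposited a score, an antibody and an input signal, a fold ratio, a distribution score (a fraction from 0 to 1) and a false discovery rate in percent, per the file headers. The sources used here state neither the scaling of the signal nor the rule of the combined set.

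The members and gene lists were chosen with earlier results of these data known. Peak coordinates are on Spur_5.0 and counted from 1. Scaffolds of nuclear genes are unnamed in the gene table. Its 21 blocks over 20 Mb were matched, in the order of the table, to the 21 scaffolds of over 100 library 2 peaks. That order put 68.3% of library 2 peaks inside genes, and 20 shifted orders 38.0 to 46.3%. It placed 24774 of 27446 protein-coding genes. A peak was near a gene at 10 kb or less from its span, and peaks of the libraries were shared when they overlapped by 1 bp. No gene was tested again and no p-value was computed, since the table has no values of single libraries; the design allowed for this. Implied standard errors are the absolute log2 fold change divided by the normal deviate of the deposited two-sided p. Other genes of a pathway were matched by name, and named only where listed; 1 gene of these lists is not reported here and not counted. Alternatives were other distances, scores, folds, rates, distribution scores and each library alone. Scripts were tested on simulated data. Tools were scipy 1.17.1, numpy 2.4.6, matplotlib 3.10.9 and pandas 2.3.3 under Python 3.11.15.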

Additional observations from a re-analysis of the deposited data

How the results depend on the processing

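The 8 combined peaks near the regulators became 1, and the 5 regulators with such a peak became 1, with a false discovery rate under 10%. Library 2 alone gave 24 peaks. The 7 regulators listed in the differential table became 2, Hbox7 and hh, when log2 values between -1 and 1 were dropped. The other alternatives stayed within 1.5 times the values of the report, with 7 to 11 peaks and 4 to 7 regulators; library 1 alone also gave 8 peaks, but of its own list. Requiring a distribution score of at least 0.5, or leaving out the short Dac model, was chosen after seeing the data and left 7 peaks each. No paired analysis was possible because the result comes from the authors' fold changes, without values per library. Leaving out an RNA library and the motif search were not run for want of such values and of sequences. Depth is unknown, and a scaffold is inferred from the order of the gene table.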
